A study of Mus musculus with 20 samples.

Results

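Cardiac mesenchyme transcription factors are DNA-binding proteins that pattern the heart in the embryo and remain expressed in the connective tissue cells of the adult heart. A set of 8 such genes (Tcf21, Hand2, Meox1, Meox2, Tbx20, Tbx5, Gata4 and Gata6) was followed by name through RNA-seq gene counts of mouse cardiac fibroblasts, the matrix-producing cells of the heart. The 8 genes stand among 55414 counted gene identifiers, and all 8 were among the 15624 genes that passed the filter on low counts. Cultures formed 5 groups of 4 libraries. Cells came from hearts of mice with a loxP-flanked Hyal2 gene (Hyal2 fl/fl) per the treatment protocol, while the genotype label of every sample reads wild type C57BL/6J; all groups share this background. At passage 2 the cells spent 24 h without serum and 5 h with an adenovirus, followed by 48 h in fresh medium that held growth factor at 20 ng/mL. This virus carried GFP as a control (group GFP), Cre recombinase, which removes exon 2 of the floxed Hyal2 gene in whichever cells it enters (Cre), or Hyal2 itself (Hyal2). The GFP and Cre viruses were also each combined with TGFB (GFP_TGFB and Cre_TGFB). The protocol names both bFGF and TGFB, and does not say whether cultures of the other 3 groups received bFGF in place of TGFB. The age of the mice, the number of hearts behind a culture and the promoters in the viruses are not stated in these sources. In each group replicates 1 and 2 carry the label female, and 3 and 4 the label male. Library names and the data tie the same replicate number across groups, so each number is called an isolate here. No label says that the isolates came from separate animals, and p-values then measure only the spread between these cultures.

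Library totals ranged from 38.6 to 104.8 M counts, with a median of 43.4. Levels are given as CPM, each gene's count as a rate per M counts of its TMM-scaled library, and are listed in the order of isolates 1 to 4. Hyal2, the targeted gene, lay at 36.6 to 44.5 CPM with the GFP virus, 7.62 to 13.5 with the Cre virus and 399 to 1419 with the Hyal2 virus. With TGFB it lay at 33.4 to 41.1 CPM under GFP and 5.37 to 9.14 under Cre, so the order matched the labels. The fibroblast label was checked against 10 markers, all measured, whose summed level was 43498 to 65969 CPM in GFP. Of 12 cardiomyocyte markers, 10 lay under 1 CPM in every GFP library, with Myh6 and Nppa at 0.

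Tcf21 and Hand2 are basic helix-loop-helix factors. Tcf21 marks the epicardial lineage and resident fibroblasts of the heart and is used as a marker of the resting state, and Hand2 acts in the formation of the ventricles and in the epicardium. Meox1 and Meox2 are homeobox factors of mesoderm, of which Meox1 is known from activated fibroblasts and Meox2 from resting vascular cells. Tbx20 and Tbx5 are T-box factors of heart muscle and mesenchyme, and Gata4 and Gata6 are zinc finger factors that bind GATA sites and act together with the T-box and Hand proteins. TGFB is a cytokine that turns fibroblasts into contractile, matrix-producing myofibroblasts.

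Per kilobase of annotated exon, Tcf21 was the most abundant of the 8 in GFP cultures at 55.7 ± 10.1 CPM per kb (SD, n = 4, as for the other levels per kb). Gata4 followed at 39.1 ± 3.24, Tbx20 at 33.9 ± 6.88 and Hand2 at 24.0 ± 4.44 CPM per kb. Each of these 4 genes overlapped its neighbour in this order between libraries. Gata6 at 7.28 ± 0.647 CPM per kb lay below all of them and above Meox1 at 4.75 ± 0.323, which overlapped Meox2 at 3.002 ± 1.62, and Tbx5 was last at 0.551 ± 0.368. In GFP_TGFB cultures Meox1 stood first at 125 ± 22.5 CPM per kb. Gata4 came next at 33.9 ± 4.94, Tbx20 at 20.7 ± 5.31, Tcf21 at 11.3 ± 1.06 and Hand2 at 10.8 ± 1.99, of which only Tcf21 and Hand2 overlapped. Gata6 lay at 7.46 ± 0.368, Tbx5 at 0.509 ± 0.380 and Meox2 was last at 0.148 ± 0.0441 CPM per kb. Meox1 thus moved from the sixth place to the first, and Tcf21 from the first to the fourth.

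**Figure D1:**
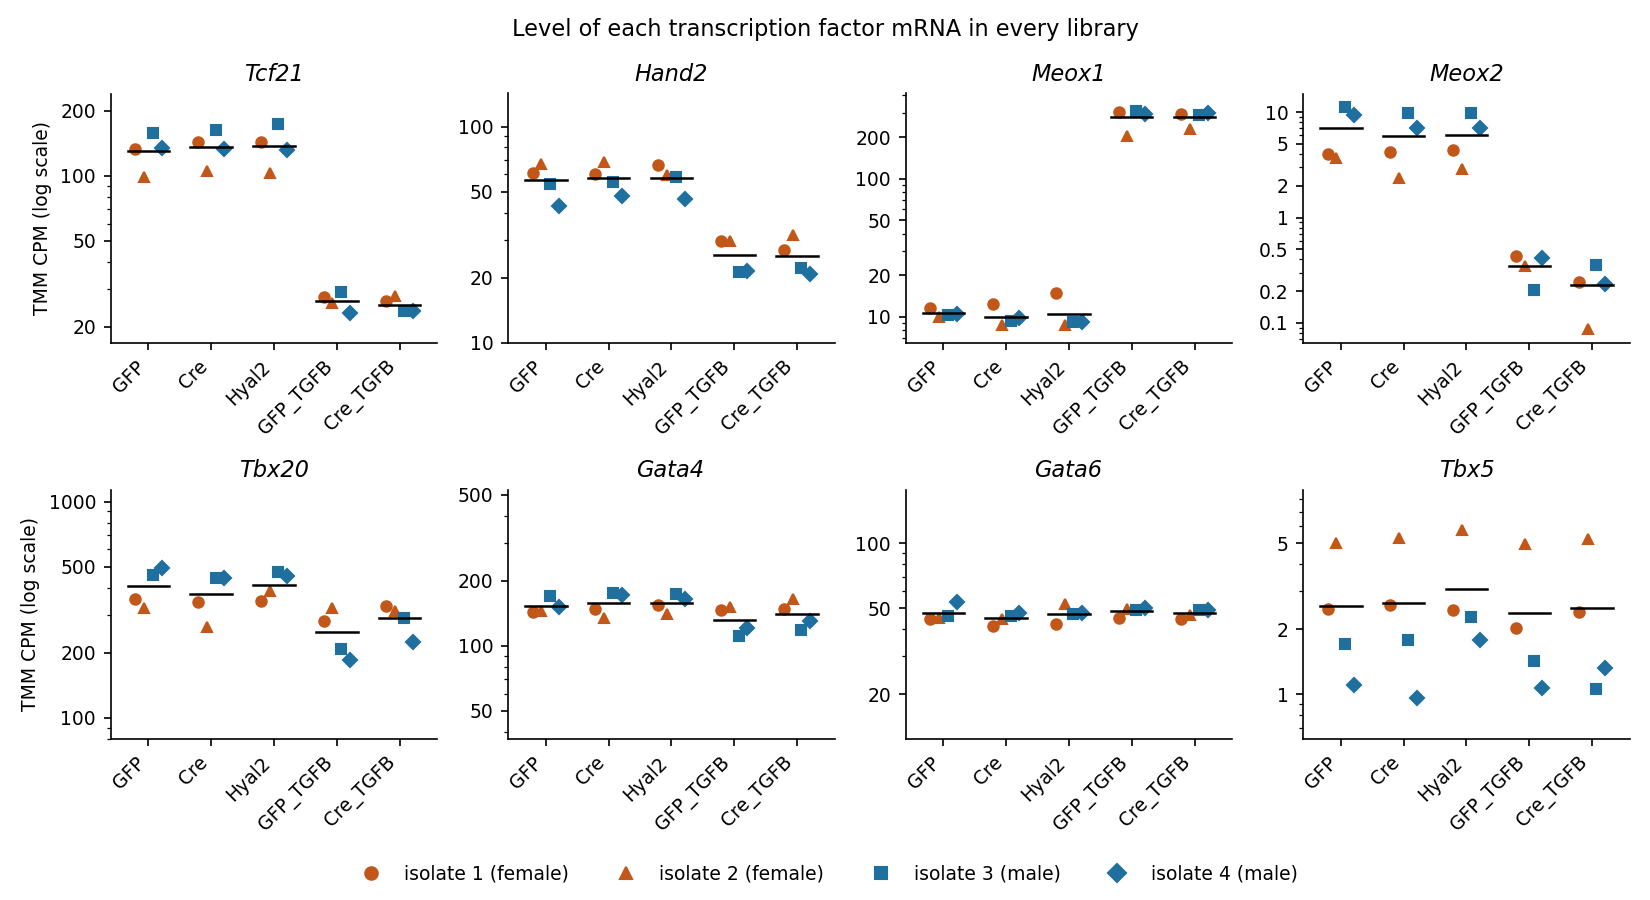
Level of each of the 8 transcription factor mRNAs in every library (TMM CPM, log scale; each panel has its own range), with points for isolates 1 to 4, colour for sex and a black line for the mean of the 4 libraries of a group. Tcf21, Hand2 and Meox2 are lower and Meox1 higher in both groups with TGFB, while Tbx5 is ordered by isolate, with isolate 2 highest in all 5 groups.

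Promoters from the RefSeq table (GRCm38.p6) are shown for 4 members, all 4 of which were called lower with TGFB in the GFP cultures. Each line gives the 250 bases before the annotated start, 5′ to 3′ on the gene's strand. Capitals mark matches to GATAA, the core bound by GATA factors, and to TAATTA, a core bound by many homeodomain proteins.
Tcf21 (chr10:22820144-22820393, minus strand): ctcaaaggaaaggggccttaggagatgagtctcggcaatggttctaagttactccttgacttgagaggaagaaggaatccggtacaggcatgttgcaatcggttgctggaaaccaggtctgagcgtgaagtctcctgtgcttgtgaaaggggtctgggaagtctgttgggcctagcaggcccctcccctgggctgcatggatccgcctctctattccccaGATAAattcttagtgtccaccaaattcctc
Hand2 (chr8:57320733-57320982, plus strand): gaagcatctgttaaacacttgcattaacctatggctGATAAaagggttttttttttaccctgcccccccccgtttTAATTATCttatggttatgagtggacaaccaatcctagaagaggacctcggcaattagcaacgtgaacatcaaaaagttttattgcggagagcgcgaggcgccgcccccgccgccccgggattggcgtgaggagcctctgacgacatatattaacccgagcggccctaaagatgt
Tbx20 (chr9:24774304-24774553, minus strand): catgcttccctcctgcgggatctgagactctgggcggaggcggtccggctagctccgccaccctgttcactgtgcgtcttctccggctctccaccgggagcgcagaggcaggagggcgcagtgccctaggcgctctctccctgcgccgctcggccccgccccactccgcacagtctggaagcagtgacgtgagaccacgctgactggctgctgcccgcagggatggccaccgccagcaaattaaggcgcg
Meox2 (chr12:37108290-37108539, plus strand): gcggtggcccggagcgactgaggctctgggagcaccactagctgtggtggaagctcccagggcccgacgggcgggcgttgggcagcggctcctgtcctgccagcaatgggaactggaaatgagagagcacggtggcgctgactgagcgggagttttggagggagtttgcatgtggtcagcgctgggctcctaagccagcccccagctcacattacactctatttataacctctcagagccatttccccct
Both strands were searched. The Tcf21 promoter holds 1 match to GATAA, which begins 30 bases before the start. The Hand2 promoter holds 2, the second of them on the opposite strand and overlapping the single TAATTA match. Tbx20 and Meox2 hold neither motif. Of 32851 promoters of the same length, 22.6% hold GATAA and 4.84% hold TAATTA. Also searched were CAGCTG (a form of the E-box), AGCCAGACA (CAGA box of SMAD proteins), GTCTAGAC (SMAD palindrome), TGACTCA (AP-1), GGAATG (TEAD) and AGGTGTG (T-box). These matched none of the 4 promoters. They occur in 13%, 0.301%, 0.167%, 4.46%, 12.6% and 5.10% of promoters. Other forms of the E-box were not searched. A match is a run of letters in this window and says nothing about binding.

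TGFB was added to cultures with the control virus and to cultures with the Cre virus, which asks how the factors respond to it with Hyal2 present and with Hyal2 reduced. With the GFP virus Meox1 rose 26.3-fold, Meox2 fell 20.3-fold, Tcf21 fell 4.95-fold, Hand2 fell 2.21-fold and Tbx20 fell 1.63-fold. Gata4, Gata6 and Tbx5 did not pass the test. Thus 1 of 8 members was higher and 4 were lower at an adjusted p under 0.05 (edgeR quasi-likelihood test, Benjamini-Hochberg over all genes tested), where 55.3% of all 15624 genes were called, 26.6% higher and 28.6% lower. With the Cre virus the same test called 1 member higher and 3 lower (56.5% of all genes called, 27.5% higher and 29% lower), namely Meox1, Meox2, Tcf21 and Hand2. The median log2 fold change of the 8 members was -0.46 with GFP and -0.27 with Cre, against -0.02 and -0.0042 over all genes. The 2 comparisons share no library but the same 4 isolates. In bulk RNA, fewer cells of a type and less RNA per cell cannot be told apart.

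Tcf21 lay at 133, 99.3, 157 and 134 CPM in GFP and at 27.5, 25.9, 29.1 and 23.3 CPM in GFP_TGFB. With the Cre virus it went from 143, 105, 164 and 133 CPM to 26.5, 27.7, 23.6 and 23.6 CPM. The highest culture with TGFB (29.1 CPM) lay far below the lowest without it (99.3 CPM). Isolate 2 was the lowest of the 4 in each group without TGFB and not with it. The log2 fold change was -2.31 (SE 0.16, edgeR adjusted p = 7.38e-10) with GFP and -2.42 (SE 0.16, 3.97e-10) with Cre. Groups did not overlap for Tcf21, Hand2, Meox1 and Meox2 in either virus, which was the case for 50.2% of all genes with GFP and 51.2% with Cre.

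Hand2 lay at 61.0, 67.4, 54.2 and 43.0 CPM in GFP and at 29.6, 29.4, 21.3 and 21.5 CPM in GFP_TGFB. In Cre it lay at 60.3, 68.7, 55.5 and 47.6 CPM, and in Cre_TGFB at 26.9, 31.5, 22.1 and 20.7 CPM. Isolate 4 was the lowest of the 4 in each of these groups but GFP_TGFB, where isolate 3 was, and no culture with TGFB reached the lowest one without it. Both female isolates lay above both male ones in all 5 groups. The log2 fold change was -1.15 (SE 0.16, edgeR adjusted p = 8.65e-06) with GFP and -1.20 (SE 0.16, 4.89e-06) with Cre. Hand2os1, a long noncoding RNA transcribed from the opposite strand beside Hand2, went from 8.14 ± 0.481 CPM in GFP to 2.55 ± 1.05 in GFP_TGFB (SD, n = 4), a log2 fold change of -1.65 (edgeR adjusted p = 6.83e-06). With Cre its value was -1.44 (2.66e-05). The exons of the pair overlap by 461 bases in the GENCODE annotation used, and the strand setting of the counting is not given, so the reads of that stretch cannot be assigned to either gene.

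Meox1 lay at 11.6, 10.0, 10.2 and 10.4 CPM in GFP and at 305, 204, 310.1 and 294 CPM in GFP_TGFB. In Cre it lay at 12.3, 8.74, 9.32 and 9.81 CPM and in Cre_TGFB at 295, 229, 287 and 299 CPM. Isolate 2 had the lowest level of the 4 with TGFB under both viruses. The log2 fold change was 4.72 (SE 0.18, edgeR adjusted p = 3.54e-13) with GFP, the 38th highest of 15624 genes, and 4.78 (SE 0.18, 2.97e-13) with Cre, the 34th highest.

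Meox2, the paralogue of Meox1, moved the opposite way. It lay at 4.02, 3.64, 11.3 and 9.41 CPM in GFP and at 0.434, 0.346, 0.204 and 0.415 CPM in GFP_TGFB. In Cre it lay at 4.17, 2.39, 9.85 and 7.12 CPM and in Cre_TGFB at 0.244, 0.0868, 0.354 and 0.233 CPM. Male isolates 3 and 4 were above the female ones in all groups without TGFB, and the order was mixed with it. The log2 fold change was -4.33 (SE 0.55, edgeR adjusted p = 1.85e-06) with GFP, the 111th lowest of all genes, and -4.60 (SE 0.56, 1.14e-06) with Cre, the 88th lowest. Levels with TGFB rest on 8 to 25 counts per library in GFP_TGFB and 4 to 24 in Cre_TGFB, little above the floor of 3 counts (0.0286 to 0.0777 CPM, counting error only).

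**Figure D2:**
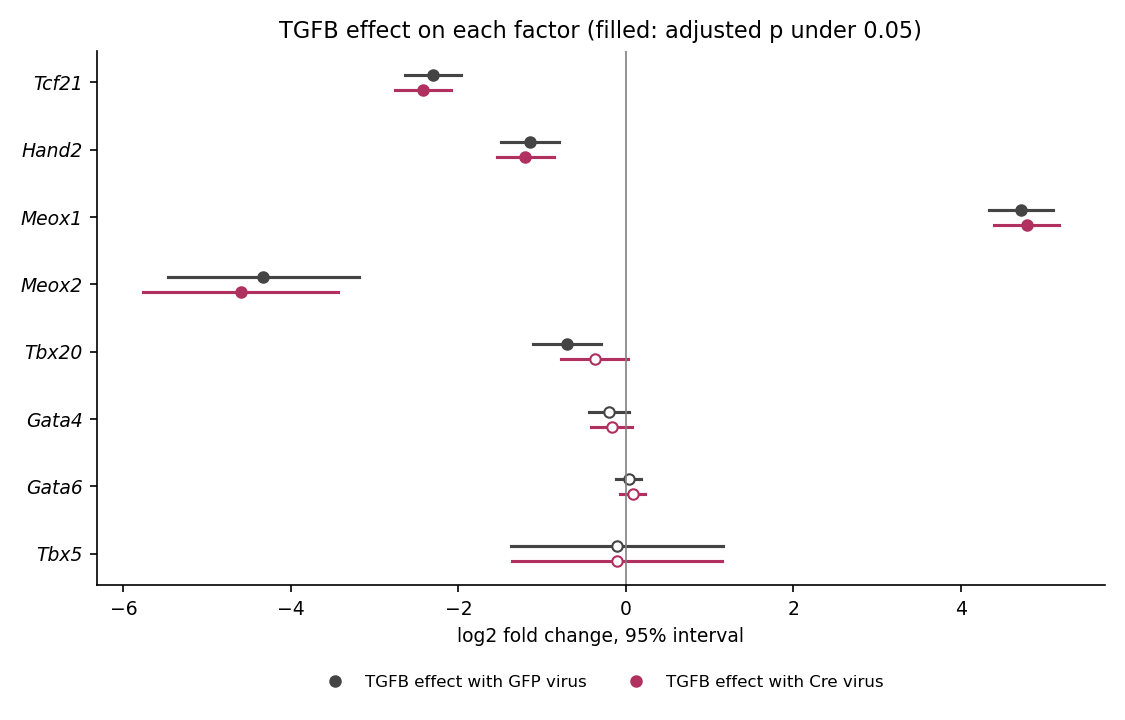
Log2 fold change of each factor with TGFB against without it, in GFP-virus and Cre-virus cultures (n = 4 libraries per group), with 95% intervals from the edgeR fit and filled points where the adjusted p is under 0.05. Meox1 lies at 4.72 and 4.78, Meox2 at -4.33 and -4.60, and the intervals of Tbx5 are the widest of the members near 0.

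Markers of other cell types were read in the same comparison, where 55.3% of all genes were called, or 61.9% with the replicate block, which takes out differences between isolates. Of 10 endothelial markers 1 was called higher and 4 lower in GFP_TGFB, with a summed level of 54.9 to 70.8 CPM in GFP and 48.6 to 66.2 CPM in GFP_TGFB; Pecam1, which defines the type, had means of 3.55 and 1.80 CPM. With the block 6 of the 10 were lower and 1 higher. Of 7 tested leukocyte markers 4 were called lower, and 7 with the block, and the sum of the list was 181 to 418 and 108 to 264 CPM. Sums in this paragraph take all listed markers, tested or not. Of 6 tested mesothelial and epicardial markers 3 were called lower, and 4 lower and 1 higher with the block, and the sum was 588 to 662 and 184 to 274 CPM, of which Aldh1a2 alone made 609 and 216 CPM on average. Pericyte markers had 2 higher and 2 lower of 6 (139 to 194 and 143 to 182 CPM), Schwann cell markers 1 lower of 3 tested (6.63 to 14.96 and 2.57 to 3.49 CPM), and cardiomyocyte markers 1 lower of 3 tested (3.31 to 4.09 and 1.48 to 4.17 CPM). Fibroblast markers had 1 higher and 8 lower of 10 (43498 to 65969 and 37309 to 46389 CPM), and markers of activated fibroblasts 6 higher and 1 lower of 9 (16000 to 19812 and 28015 to 31329 CPM). Within the pericyte sum, Notch3 went from 127 to 38.7 CPM on average and Cspg4 from 2.55 to 64.6 CPM between GFP and GFP_TGFB. Of the leukocyte sum Lyz2 made 224 and 149 CPM on average. The part of these cells in the levels of the 8 factors was not tested.

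Tbx20 and Gata4 were called lower with TGFB in the male isolates alone, and not in the female isolates alone. The male fit called 8434 of all 15585 genes tested with GFP and 8658 with Cre. In the female fit fewer were called, 6036 of 16425 with GFP and 6199 with Cre. Tbx20 lay at 353, 320.3, 459.5 and 492 CPM in GFP and at 280.5, 322, 208 and 185 CPM in GFP_TGFB. In Cre it lay at 341, 261, 444 and 444 CPM and in Cre_TGFB at 328, 311, 289 and 224 CPM. Without TGFB both male isolates were above both female ones in all 3 virus groups, and with TGFB both were below both female ones under either virus. The pooled log2 fold change was -0.71 (SE 0.19, edgeR adjusted p = 0.00431) with GFP and -0.37 (SE 0.19, 0.106) with Cre, and the GFP and GFP_TGFB libraries overlapped.

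Within the sexes, the female isolates gave Tbx20 log2 fold changes of -0.16 (edgeR adjusted p = 0.355) with GFP and 0.07 (0.700) with Cre. Male isolates gave -1.27 (1.94e-06) and -0.79 (8.96e-05). The difference between the sexes, male minus female, was -1.12 (SE 0.18, edgeR adjusted p = 0.0105) in the GFP cultures, the 16th smallest p of all genes. Of the 8 members, Tbx20 and Gata4 were called in this contrast, where 1.38% of all genes were. In the Cre cultures 0 members were called by edgeR (0.128% of all genes), and the difference for Tbx20 was -0.87 (SE 0.18, adjusted p = 0.0630); with the replicate block it was -0.88 (0.0110) and 2 of 8 members were called (4.34% of all genes). There are 2 isolates of each sex, so that sex and isolate cannot be told apart.

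Gata4 lay at 143, 144, 171 and 152 CPM in GFP and at 146, 152, 112 and 121 CPM in GFP_TGFB. In Cre it lay at 148, 135, 177 and 172 CPM and in Cre_TGFB at 148, 164, 118 and 130.2 CPM. As for Tbx20, the male isolates were the higher pair without TGFB and the lower pair with it, under both viruses. Over all isolates the log2 fold change was -0.20 (SE 0.12, edgeR adjusted p = 0.145) with GFP and -0.17 (SE 0.12, 0.216) with Cre. Female isolates gave 0.04 (0.741) and 0.13 (0.280), and male isolates -0.47 (0.000650) and -0.49 (0.000497). The sex difference was -0.52 (SE 0.12, edgeR adjusted p = 0.0424) with GFP, and -0.63 (SE 0.12, 0.0530) with Cre, where the block gave -0.63 (0.00934). Meox2 had a sex difference of -1.72 (SE 0.61, edgeR adjusted p = 0.163) with GFP, which passed with the block (0.0302, where 3 of 8 members and 6.05% of all genes were called), by DESeq2 (0.0388) and with no filter (0.00258), and -0.62 (0.692) with Cre. The other 5 members had sex differences of -0.35 to 0.31 with GFP and none was called.

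Single libraries bear on these calls. The Tbx20 change with TGFB was -0.56 (edgeR adjusted p = 0.0680) without isolate 3 and -0.47 (0.0629) without isolate 4 in the GFP cultures. In the Cre cultures it passed without isolate 2 (-0.55, 0.0195) and without the Cre library of isolate 2 (-0.51, 0.0277). Gata4 passed without isolate 2 under both viruses, at -0.32 (0.0253) with GFP and -0.33 (0.0207) with Cre. The Tbx20 sex difference with GFP missed the threshold without the GFP library of isolate 2 (-1.05, 0.0908), the GFP_TGFB library of isolate 2 (-1.01, 0.0861) or that of isolate 4 (-1.04, 0.0536). The Gata4 sex difference missed it without any of 7 of the 8 libraries (-0.58 to -0.43, adjusted p = 0.0673 to 0.204), the exception being the GFP library of isolate 4. With Cre, leaving out the Cre library of isolate 1 brought both genes past the threshold, Tbx20 at -1.08 (0.0214) and Gata4 at -0.70 (0.0264).

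Among the marker lists, 1 of 9 activated fibroblast markers had a called sex difference in the TGFB effect under each virus. It was Ccn2, which encodes the secreted protein CTGF and is named here after its values were seen, at 1.24 (SE 0.16, edgeR adjusted p = 0.00316) with GFP and 1.10 (SE 0.16, 0.0139) with Cre. Of the 45 tested markers on the other lists edgeR called 0 under either virus (1.38% of all genes with GFP and 0.128% with Cre). An unadjusted edgeR p under 0.05 was found for 6 with GFP and 7 with Cre, against 2572 and 2305 of all 15624 genes. The block called 6 and 4 of the 45, where it called 6.05% and 4.34% of all genes. Of the 9 activated fibroblast markers the block called 3 with GFP and 2 with Cre, all higher in the male minus female difference. Leukocyte marker sums were higher in the female isolates in every group, at 418, 284, 246 and 181 CPM in GFP and 264, 201, 135 and 108 CPM in GFP_TGFB. Pericyte marker sums were 166, 139, 194 and 163 CPM in GFP and 182, 172, 143 and 148 CPM in GFP_TGFB, so that the male isolates were below both female ones with TGFB only. Mesothelial and epicardial marker sums had the same order, at 662, 588, 597 and 601 CPM in GFP and 274, 222, 193 and 184 CPM in GFP_TGFB, and at 687, 581, 633 and 654 CPM in Cre and 295, 247, 216 and 200.4 CPM in Cre_TGFB. The low cardiomyocyte sums had it in the GFP cultures, at 3.31, 4.09, 3.56 and 3.42 CPM without TGFB and 2.49, 4.17, 1.48 and 1.83 CPM with it. The part of these cells in the sex difference was not tested.

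**Figure D3:**
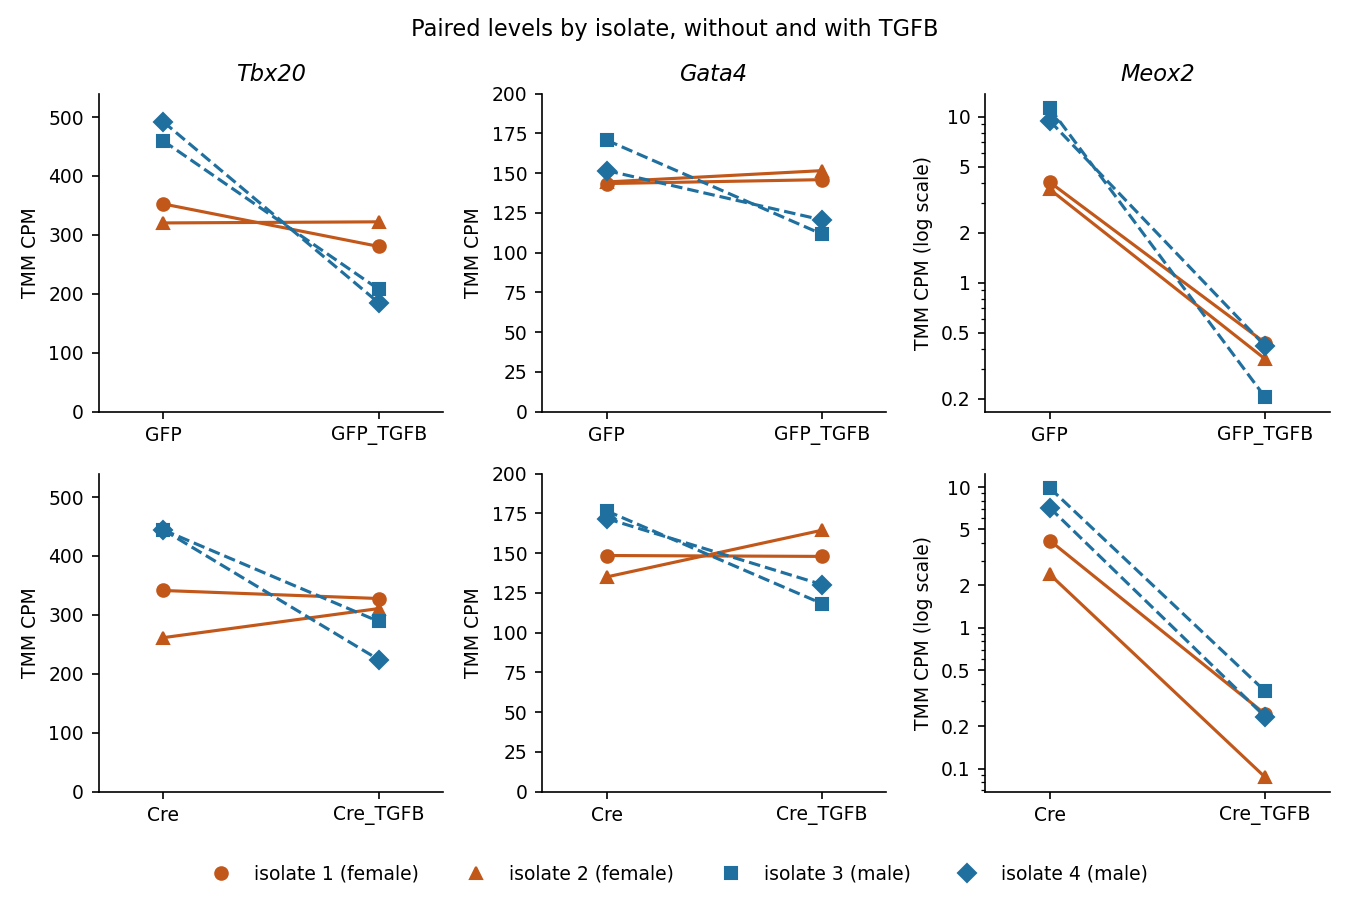
Levels of Tbx20, Gata4 and Meox2 in each isolate without and with TGFB, in GFP-virus cultures (top) and Cre-virus cultures (bottom), with a line per isolate (TMM CPM; log scale for Meox2). Lines of the male isolates of Tbx20 and Gata4 cross those of the female isolates, while every line of Meox2 goes down.

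Gata6 and Tbx5 did not pass the test in any comparison. Gata6 lay between 41.2 and 53.6 CPM in all 20 libraries. Its log2 fold change with TGFB was 0.03 (95% interval -0.12 to 0.19, edgeR adjusted p = 0.708) with GFP and 0.08 (-0.07 to 0.23, 0.357) with Cre. It was the member with the narrowest intervals. Scaling by library totals turned the first value to -0.07 and made Gata4 pass (-0.30, 0.0359), in a scaling under which the median of all genes was -0.13 and 3144 genes were higher and 5521 lower, against 4159 and 4475 with TMM. Gata6os, on the strand opposite to Gata6 with 93 bases of exon overlap, had -0.02 (0.938).

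Tbx5 was ordered by isolate and not by group. Isolate 2 held 4.98 to 5.77 CPM in the 5 groups, isolate 1 held 2.03 to 2.58, isolate 3 held 1.06 to 2.28 and isolate 4 held 0.962 to 1.79. Isolate 2 was above every library of the other isolates. Within each group both female isolates lay above both male ones. The log2 fold change with TGFB was -0.11 (95% interval -1.38 to 1.16, edgeR adjusted p = 0.895) with GFP and -0.11 (-1.37 to 1.15, 0.894) with Cre, intervals that hold the spread between isolates. Within isolates the difference was -0.15 ± 0.14 (SD, n = 4) with GFP, below 0 in 4 of 4, and -0.10 ± 0.48 with Cre, below 0 in 3 of 4. With the replicate block neither passed (edgeR adjusted p = 0.472 and 0.558).

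The variation of log2 CPM over the 20 libraries was split into the shares of TGFB, virus, isolate and a remainder. TGFB took 99.1% of the sum of squares for Meox1, 96.9% for Tcf21, 90.2% for Meox2 and 87.3% for Hand2. It took 50.2% for Tbx20 and 29.2% for Gata4, where the remainder was 42.0% and 67.7%; the remainder holds any TGFB effect that differs between isolates. Isolate took 91.1% for Tbx5 and 55.6% for Gata6, and 11.03% or less for the other 6. Virus took at most 9.59%, for Gata6, whose total spread was the smallest (SD 0.09 on the log2 scale).

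**Figure D4:**
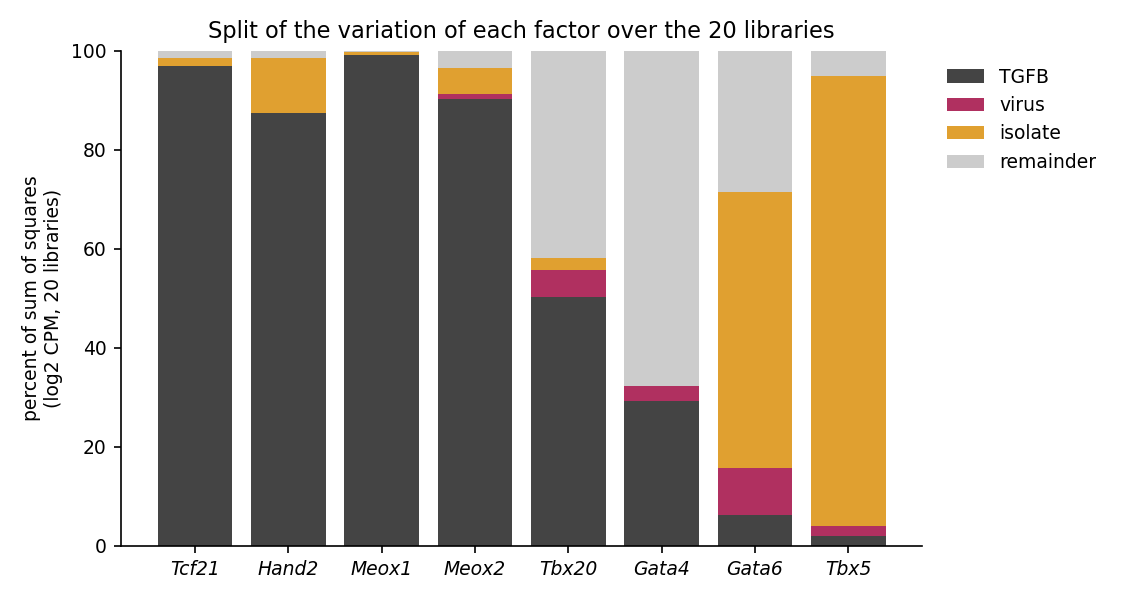
Share of the sum of squares of log2 CPM over 20 libraries taken by TGFB, virus (within TGFB state), isolate and the remainder, for each factor. TGFB takes over 87% for Tcf21, Hand2, Meox1 and Meox2, and isolate takes 91.1% for Tbx5.

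The Cre virus was compared with the GFP virus without and with TGFB, and the Hyal2 virus with the GFP virus, to ask whether lowering or raising Hyal2 alters the factors. None of the 8 members passed. Cre against GFP gave log2 fold changes of -0.28 (Meox2) to 0.06 (Tcf21), with 0 of 8 called by edgeR (0.0064% of all genes). Cre_TGFB against GFP_TGFB gave -0.55 (Meox2) to 0.21 (Tbx20), with 0 of 8 called (0.0064%). Hyal2 against GFP gave -0.23 (Meox2) to 0.23 (Tbx5), with 0 of 8 called (0.0064%). The interaction, the Cre effect with TGFB less that without it, gave -0.27 (Meox2) to 0.33 (Tbx20), with 0 of 8 called (0%). At an unadjusted p under 0.05 the main edgeR fit gave 0 members in each of the 4. Over all 15624 genes it gave 711, 223, 331 and 397 in the same order, so few members would be reached at these rates. At an adjusted p under 0.05 the count of members was also 0 by DESeq2, by limma-voom and by edgeR with the replicate block. The block called 0.269% of all genes in Cre against GFP.

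Intervals are given from the fit without the block. They hold the spread between isolates, so they can be wider than the range of Hyal2 effects that the paired cultures allow. For Tcf21 the 95% interval was -0.26 to 0.37 for Cre against GFP and -0.24 to 0.39 for Hyal2 against GFP, and for Gata6 it was -0.23 to 0.07 and -0.15 to 0.15. For Meox1 the interval of Cre_TGFB against GFP_TGFB was -0.33 to 0.32, around levels of 278 ± 50.1 and 277 ± 32.7 CPM (SD, n = 4). For Meox2 the interval of Cre against GFP was -1.17 to 0.62, and for Tbx20 that of Cre_TGFB against GFP_TGFB was -0.19 to 0.61. Within isolates, Tbx20 (-0.13 ± 0.12, SD, n = 4) and Gata6 (-0.07 ± 0.08) were lower in Cre than in GFP in 4 of 4. With TGFB, Gata4 was higher (0.08 ± 0.04) and Gata6 lower (-0.03 ± 0.04) with Cre in 4 of 4, and Tbx20 was higher in 3 of 4 (0.23 ± 0.22). With the block these had edgeR adjusted p = 0.856 and 0.649 without TGFB and 1 for each of the 3 with it. No member lay on 1 side in all 4 isolates in Hyal2 against GFP. Intervals of Tbx5 reached from -1.21 to 1.30 for Cre against GFP, while its difference within isolates was 0.0028 ± 0.13 (SD, n = 4). In the Hyal2 group the levels were 143, 103, 175 and 132 CPM for Tcf21, 66.2, 60.0, 58.2 and 46.4 for Hand2, and 14.99, 8.68, 9.15 and 9.23 for Meox1. They were 346, 384, 470.2 and 450.5 CPM for Tbx20, 154, 140.0, 174 and 165 for Gata4, and 4.33, 2.86, 9.79 and 7.10 for Meox2. All overlapped the GFP libraries, whereas 1.25% of all genes did not.

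**Figure D5:**
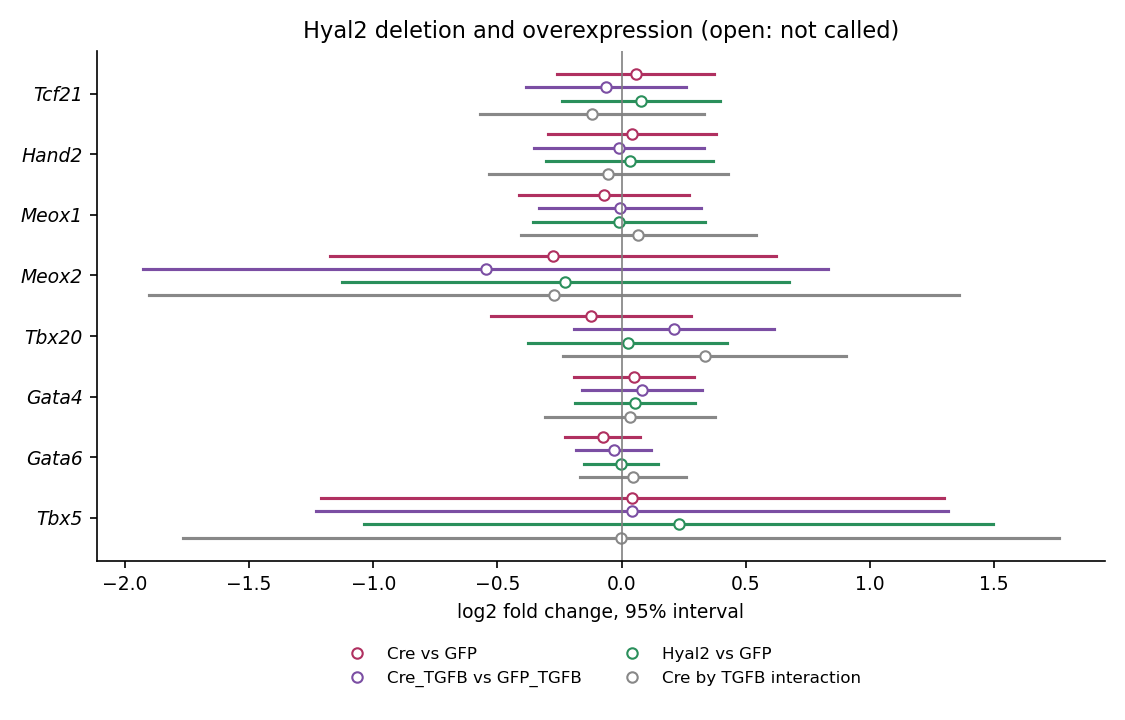
Log2 fold changes of each factor for Cre against GFP, Cre_TGFB against GFP_TGFB, Hyal2 against GFP and the Cre by TGFB interaction (n = 4 libraries per group), with 95% intervals from the edgeR fit. All intervals include 0; those of Gata6 are the narrowest and those of Tbx5 and Meox2 the widest.

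Relatives and protein partners of the factors were read from 2 lists. Of 15 relatives from the same families 10 were tested, of which 1 was higher and 4 lower with TGFB in GFP cultures, where 55.3% of all genes were called; their median log2 fold change was -0.28. Tbx2, a T-box repressor, went from 7.44 ± 0.722 to 4.38 ± 0.436 CPM (SD, n = 4), a log2 fold change of -0.76 (edgeR adjusted p = 5.94e-05). Tcf24, a relative of Tcf21, went from 1.16 ± 0.171 to 2.86 ± 0.586 CPM (1.30, 0.000257). Gata1, Gata5, Hand1, Tbx1 and Tcf15 did not reach the count needed for a test.

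Of 15 partners 14 were tested, with 4 higher and 6 lower and a median of -0.11, against the same 55.3% and a median of -0.02 over all genes. Zfpm1, which encodes FOG1, a cofactor that binds GATA proteins, rose from 18.6 ± 1.41 to 44.8 ± 3.53 CPM (1.27 on the log2 scale, edgeR adjusted p = 3.73e-10), while its paralogue Zfpm2 had -0.02 (0.928). Smarcd3, a chromatin remodelling subunit that works with Gata4 and Tbx5, rose from 27.2 ± 1.09 to 42.5 ± 3.20 CPM (0.64, 1.77e-07). Srf, the serum response factor, had 0.70 (2.12e-06) and Mef2d, a MADS box factor, 0.37 (1.96e-06). Tcf4, a helix-loop-helix partner protein, had -0.88 (1.49e-05). With the Cre virus 5 partners were higher and 5 lower, and 1 relative was higher and 3 lower, where 56.5% of all genes were called.

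In Cre against GFP, Cre_TGFB against GFP_TGFB, Hyal2 against GFP and the interaction, edgeR called 0 of the 10 relatives and 0 of the 14 partners, also with the replicate block. These tests called at most 0.0064% of all genes, and at most 0.269% with the block. At an unadjusted p under 0.05 there was 1 partner, in Hyal2 against GFP (331 of all 15624 genes), and no relative. Such a p was held by 711 genes in Cre against GFP, 223 in Cre_TGFB against GFP_TGFB and 397 in the interaction.

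Genes with profiles most like those of the 5 members called with GFP were found over the 20 libraries by the root mean square difference of centred log2 CPM, among 9885 genes with a mean of at least 5 CPM. The libraries share the TGFB contrast, so that a small difference is a description. Nearest to Tcf21 were Adamts2, a procollagen protease (0.11), Oplah (0.11) and Emilin2, a matrix glycoprotein (0.15). Adamts2 went from 1290.1 to 268 CPM between GFP and GFP_TGFB. Nearest to Hand2 were Thbd, or thrombomodulin (0.10), Efna4 (0.13) and Ecscr (0.13). Nearest to Tbx20 were Abat (0.15), Arhgap6 (0.16) and Zc3h6 (0.16). Meox1 had Cspg4, or NG2 (0.27), Sema7a (0.35) and Olfm2 (0.43) as its nearest genes, and Sema7a went from 6.03 to 159 CPM. Meox2 had Abca9 (0.37), Gas1 (0.42) and Ccl9 (0.44), and Gas1 went from 341 to 18.3 CPM.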

How the data were processed

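RNA-seq gene counts of 20 cardiac fibroblast cultures were analysed. Total RNA was isolated with Trizol and a DNase step, and libraries were made with a NEBNext Ultra II kit, per the labels' protocols. The tools HTSeq 0.10.0 and FastQC 0.10.1 and the build GRCm39 (mm39) are named in the submitters' processing notes. The authors deposited raw counts per Ensembl gene, not normalised. No source used here gives the aligner, annotation release or strand setting. All 20 columns matched a labelled sample, and no pair of columns was identical.

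Symbols were matched by Ensembl identifier for 52081 of 55414 identifiers, through GENCODE M21 (GRCm38). Its exon lengths and overlaps were used without coordinates, and the exon length of a member in the annotation the authors used may differ. Identifiers without a symbol held at most 0.568% of the counts of a library. Promoters come from RefSeq (GRCm38.p6), which is an earlier build than that of the counts, and 4 of 8 members had an entry. Tarid, listed as a neighbour of Tcf21, had no matched identifier and has no value here. Gm10824, annotated as antisense to Tcf21, held 2307 counts over the 20 libraries, and Gm11551, antisense to Meox1, held 166. Neither was on the list of antisense neighbours.

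Counts were tested with edgeR 4.0.16 (R 4.3.3): TMM factors, filterByExpr (minimum count 10, minimum total 15), robust quasi-likelihood F tests in 1 fit of 20 libraries with a mean per group, and Benjamini-Hochberg adjustment over 15624 genes at 0.05. The SE is the absolute log2 fold change over the square root of F. Sex differences come from a second fit whose means are per group within each sex. The script was tested on simulated counts. Library totals of 38.6 to 104.8 M counts put the floor of 3 counts at 0.0286 to 0.0777 CPM. Alternatives were the replicate block, DESeq2 1.42.0, limma-voom (limma 3.58.1), RLE factors, library totals, no filter, single sexes and leaving out libraries or isolates. The sex difference with the Cre virus, and the leave-one-out values of the sex differences under both viruses, were added after seeing the data.

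Replicate numbers recur across groups, and library names share a prefix by number. Deviations from the group means correlated at 0.114 to 0.712 (median 0.410) in all 40 same-number pairs. In 120 other pairs they correlated at -0.606 to 0.442 (median -0.249), so the ranges overlap. Centring on group means itself lowers the values of the other pairs where same-number values are positive. The numbers were taken to pair the cultures.

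Named were all members, the 3 genes most like each called member, the listed antisense neighbours, and up to 8 called relatives and partners by smallest p. A partner that this rule named is not reported here. The 8 members and all lists (relatives, partners, antisense neighbours, fibroblast, activated fibroblast, cardiomyocyte, endothelium, pericyte, leukocyte, mesothelium and epicardium, Schwann cell) were chosen with earlier results of these data known.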

Additional observations from a re-analysis of the deposited data

Results flagged for a closer look

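A total of 40 groups of 4 libraries (8 members in 5 groups) were tested for a library apart from the other 3, and chance flags about 1 in 20 groups. Tbx5 in the Hyal2 group had its highest value, 5.77 CPM, in isolate 2, which was the highest of the 4 isolates in every group. Meox1 in the Hyal2 group had its highest value, 14.99 CPM, in isolate 1, which also held the highest Meox1 value of the GFP and Cre groups. Meox1 had its lowest values with TGFB in isolate 2, at 204 CPM in GFP_TGFB and 229 CPM in Cre_TGFB, each apart from the other 3 isolates.

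The response to TGFB differed between the male and the female isolates by a test of the difference itself for Gata4 and Tbx20 in the GFP cultures. The difference, male minus female on the log2 scale, was -0.52 for Gata4 and -1.12 for Tbx20. With 2 isolates of each sex, sex and isolate cannot be told apart. In the Cre cultures neither gene was called (edgeR adjusted p = 0.0530 for Gata4 and 0.0630 for Tbx20).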

How the results depend on the processing

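The calls of Tcf21, Hand2, Meox1 and Meox2 with TGFB kept their direction and stayed past the threshold under both viruses in all alternatives run, leave-one-out included. The calls of Tbx20 with TGFB (GFP virus) and of the Tbx20 and Gata4 sex differences kept their direction but not always the threshold: Tbx20 lost it in the female isolates alone (-0.16, edgeR adjusted p = 0.355), and the Gata4 sex difference with RLE factors (-0.50, 0.0510). Each of these calls also lost the threshold when certain libraries or isolates were left out, as given above. The replicate block changed the calls of Meox2 (-1.74, 0.0302) in the sex difference and of Tbx20 (-0.88) and Gata4 (-0.63) in the sex difference with Cre, and no other call of a member. Some of the 53 results not called changed sign. With the female isolates alone the values were 0.043 for Gata4 in GFP_TGFB against GFP, 0.13 for Gata4 and 0.071 for Tbx20 in Cre_TGFB against Cre, -0.021 for Gata4 in Cre against GFP, 0.016 for Tcf21 and 0.039 for Meox1 in Cre_TGFB against GFP_TGFB, 0.070 for Gata6, -0.032 for Hand2 and 0.12 for Meox1 in Hyal2 against GFP and 0.0075 for Tbx5 in the interaction. With scaling by library totals the values were -0.067 for Gata6 in GFP_TGFB against GFP, 0.00086 for Meox1 in Cre_TGFB against GFP_TGFB and 0.0097 for Tbx5 in the interaction. With the male isolates alone the values were -0.057 for Tbx5 in Cre against GFP, -0.085 for Tbx5 in Cre_TGFB against GFP_TGFB, -0.047 for Tbx20 in Hyal2 against GFP and -0.016 for Gata4 and 0.27 for Meox2 in the interaction. With no filter the values were 0.014 for Hand2 and 0.023 for Meox1 in Cre_TGFB against GFP_TGFB and 0.0085 for Tbx5 in the interaction. With limma-voom the values were -0.12 for Tbx5 and 0.0056 for Meox1 in Cre_TGFB against GFP_TGFB. With the replicate block the values were 0.0027 for Meox1 in Cre_TGFB against GFP_TGFB and 0.031 for Tbx5 in the interaction. With DESeq2 the values were 0.036 for Tbx5 in the interaction. With RLE factors the values were 0.0066 for Tbx5 in the interaction. Leaving out single libraries or isolates changed the sign of these results, the cause of which was not tested. In Cre_TGFB against Cre the range was -0.74 to 0.47 for Tbx5. In Cre_TGFB against GFP_TGFB the range was -0.0032 to 0.16 for Gata4, -0.13 to 0.071 for Hand2, -0.13 to 0.077 for Meox1, -0.59 to 0.73 for Tbx5 and -0.12 to 0.019 for Tcf21. In Cre against GFP the range was -0.0079 to 0.12 for Gata4, -0.068 to 0.14 for Hand2, -0.64 to 0.041 for Meox2, -0.22 to 0.014 for Tbx20, -0.54 to 0.61 for Tbx5 and -0.055 to 0.16 for Tcf21. In GFP_TGFB against GFP the range was -0.012 to 0.10 for Gata6 and -0.79 to 0.46 for Tbx5. In Hyal2 against GFP the range was -0.074 to 0.065 for Gata6, -0.078 to 0.13 for Hand2, -0.23 to 0.069 for Meox1, -0.56 to 0.091 for Meox2, -0.074 to 0.13 for Tbx20, -0.27 to 0.79 for Tbx5 and -0.056 to 0.20 for Tcf21. In the interaction the range was -0.053 to 0.11 for Gata4, -0.019 to 0.10 for Gata6, -0.17 to 0.056 for Hand2, -0.056 to 0.18 for Meox1, -0.72 to 0.090 for Meox2 and -0.63 to 0.69 for Tbx5. In the sex difference the range was -0.18 to 0.035 for Gata6, -0.22 to 0.12 for Hand2 and -0.70 to 0.73 for Tbx5. In the sex difference with Cre the range was -0.070 to 0.050 for Gata6, -1.08 to 0.43 for Meox2 and -0.74 to 0.51 for Tbx5.

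Counts of genes called moved by over 1.5 times in some settings. Cre against GFP went from 1 to 42 with the replicate block, 37 with DESeq2, 5 with no filter and 0 with limma-voom or the male isolates alone. Cre_TGFB against GFP_TGFB went from 1 to 2 with DESeq2 and 0 in either sex alone, and Hyal2 against GFP from 1 to 0 in the male isolates. The sex difference went from 216 to 945 with the replicate block, 785 with DESeq2 and 925 with no filter, and with Cre from 20 to 678 with the block. Leaving out libraries gave 0 to 2 for Cre against GFP, 0 to 3 for Cre_TGFB against GFP_TGFB, 6 to 355 for the sex difference and 2 to 270 for that with Cre. Counts were 6993 to 8657 for GFP_TGFB against GFP and 7077 to 8799 for Cre_TGFB against Cre. The cause of these differences was not tested. Depth limits Meox2 with TGFB, at 4 to 25 counts per library, and the spread between isolates limits Tbx5.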
